A study of Mus musculus with 6 samples.

Results

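The extracellular and membrane antagonists of bone morphogenetic protein (BMP) signalling were examined in the luminal epithelium of the mouse uterus, sampled 3.5 days post coitum. The set held 8 genes, Chrd, Chrdl1, Nog, Grem1, Fst, Fstl1, Fstl3 and Bambi. Its members were the 9 probes, of 45281 on the array, whose gene symbol in the scanner tables was one of these names. Chrdl1 had a pair of probes and the other 7 genes had 1 probe each. CKO samples (3 arrays, D, E and F) came from Alk3flox/flox females that also carried Pgr-cre, a knockin of Cre at the progesterone receptor locus. Control samples (3 arrays, A, B and C) came from mice that the labels call control, with no genotype given. Alk3, listed on the array as Bmpr1a, is a type I BMP receptor, and the floxed part spans exon 2, which codes for a portion of its extracellular domain. Both groups had a hybrid C57BL/6J and 129S5/SvEvBrd background, and no age was given. Pgr-cre acts in cells that use the progesterone receptor gene, which in the uterus are found in stroma and muscle as well as epithelium, so the deletion is not limited to the epithelium. Whether the arrays hold RNA of different animals is not stated. The tests below therefore set differences against the spread of these 3 samples a group, which may be technical, and how the epithelium was isolated is not given either.

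BMPs signal through pairs of type I and type II receptors that phosphorylate SMAD proteins. Antagonists act before that step: chordin, chordin-like, noggin and gremlin bind the ligands and keep them from their receptors, and follistatin and its relatives bind activins and, more weakly, BMPs. Bambi is a membrane protein that resembles a type I receptor but has no kinase domain. In the mouse uterus, BMP signalling is known for its part in receptivity of the epithelium and in decidualisation of the stroma around the implanting embryo.

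The arrays were alike in depth. The median raw bead signal was 79.7 to 82.1 on CKO arrays and 82.4 to 87.6 on Control arrays, and 17156 to 17461 probes on CKO arrays and 16620 to 17536 on Control arrays were above background, taken as a detection p-value under 0.05. Array CKO E correlated least with the others (mean r across genes 0.936), and member results that rest on it are given without it as well. Bmpr1a, the targeted gene, had by its brighter probe normalised log2 signals of 8.86, 8.25 and 8.67 on CKO arrays D, E and F, and of 9.26, 9.35 and 8.97 on Control arrays A, B and C. By this probe every CKO value was under the lowest Control value, without a call (limma, adjusted p = 0.976). Its other probe had groups that overlapped. Whether either probe lies in the floxed exon was not determined, so Bmpr1a does not check the labels. Of 14 epithelial markers, 12 were tested, among them Krt8, Krt18 and Cdh1, while Epcam and Calb1 were above background on 0 arrays.

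Of the 8 antagonist genes, only Chrd was measured above background on all 6 arrays. Fstl1 was above background on 2 arrays and Fst on 1, all of them CKO arrays. The other 5 genes, Chrdl1, Nog, Grem1, Fstl3 and Bambi, were above background on 0 arrays, by 6 probes. In all, 9 of 54 pairs of probe and array passed. Over the whole array, 30.9% of probes were above background on all 6 arrays and 53.3% on none. A probe below background has only an upper bound, so its transcript may be present at a level these arrays cannot separate from background. In a bulk sample of this kind, fewer cells of a type and less RNA per cell cannot be told apart.

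**Figure D1:**
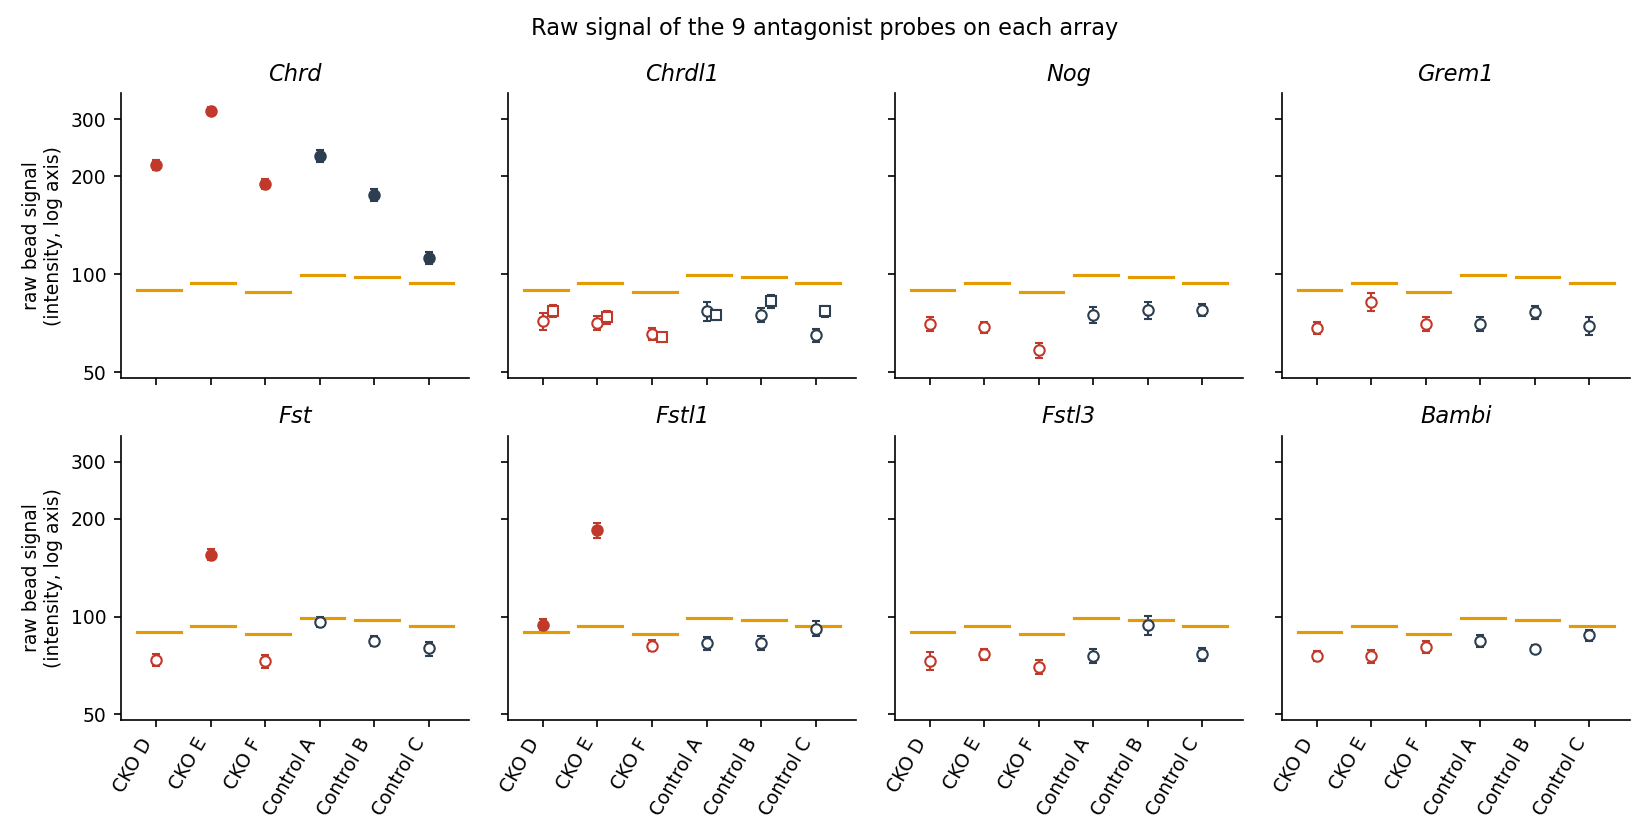
Raw bead signal (intensity, log axis) of the 9 probes on CKO arrays (red) and Control arrays (dark blue), with bead standard errors. Filled points are above background, open points are not, and orange bars are the lowest raw signal above background on that array (88.4 to 93.9 on CKO arrays, 93.8 to 99.4 on Control arrays). Squares are the second Chrdl1 probe. Chrd is filled on all 6 arrays, Fstl1 on CKO D and CKO E, and Fst on CKO E.

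Chrd encodes chordin, a secreted protein that binds BMPs and is itself cut by tolloid proteases such as Bmp1. Its raw signal was 216.4 on CKO D, 318.9 on CKO E and 189.6 on CKO F, against 230.7 on Control A, 175.5 on Control B and 112.2 on Control C. The highest value was on CKO E and the lowest on Control C, and the groups overlapped, since Control A lay above CKO D and CKO F. Bead standard errors were 7.53, 9.03 and 7.19 on the CKO arrays and 9.81, 7.34 and 4.91 on the Control arrays, from 42 to 48 beads. Control C was the array nearest to background, with a detection p-value of 0.00107. On the other 5 arrays it was 0.

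After background correction and quantile normalisation, the log2 signal of Chrd was 7.47, 7.98 and 7.13 on CKO D, E and F, and 7.25, 6.70 and 5.75 on Control A, B and C. Normalisation brought Control A below CKO D, and it stayed above CKO F, so the groups still overlapped. The means were 7.53 ± 0.43 in CKO and 6.57 ± 0.76 in Control (SD, n = 3 each). The log2 difference was 0.96 (SE 0.42, 95% confidence interval -0.037 to 1.96), a 1.95-fold higher mean in CKO. Chrd did not pass in the fit across 11940 genes (limma, adjusted p = 0.976, unadjusted p = 0.0567). The exact two-sided permutation test gave p = 0.2, and 3 arrays against 3 cannot go below 0.1. So 0 of the 1 member tested was called by limma, and 0 had an unadjusted p-value under 0.05, a level that 4.72% of all genes tested were under. Of all genes tested, 0.0168% were called, which is 2 genes, both higher in CKO. A difference at least as large in either direction was found for 2.7% of genes.

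**Figure D2:**
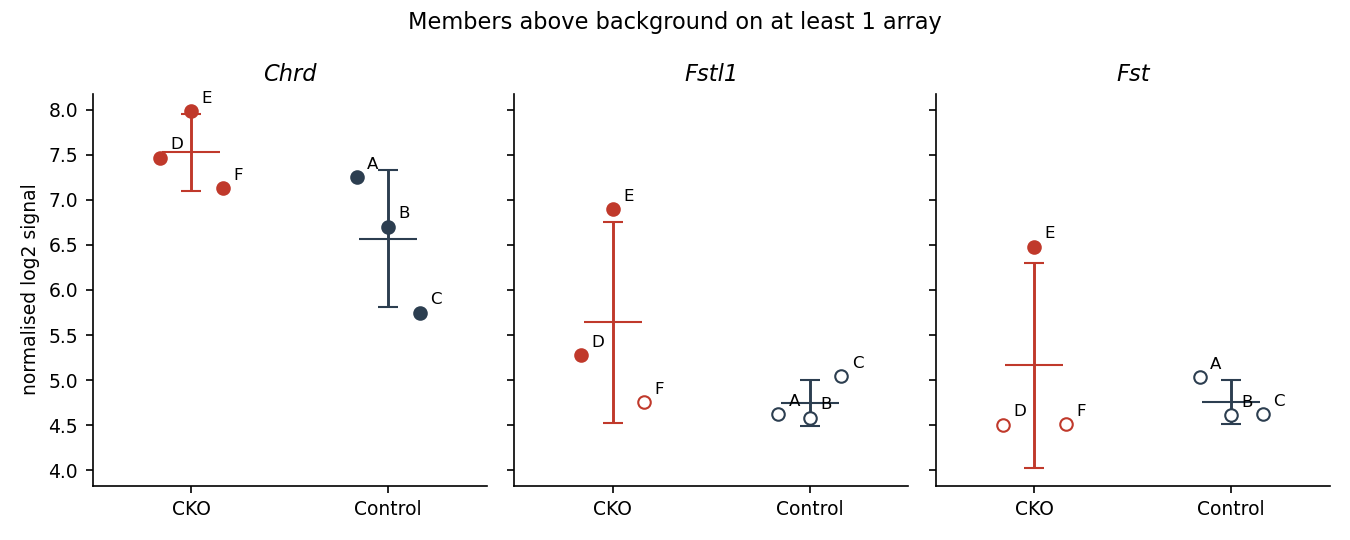
Normalised log2 signal of Chrd, Fstl1 and Fst on 3 CKO arrays and 3 Control arrays, each point lettered by array. Filled points are above background, open points are not, and horizontal and vertical lines are the mean and SD. CKO E is the highest point in each panel, and Control A lies above CKO F for Chrd.

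The size of the Chrd difference depended on single arrays. Without Control C it was 0.55 and without Control A it was 1.30, with an interval of 0.33 to 2.27 and an adjusted p of 0.927 by limma. Without CKO E it was 0.74 (-0.36 to 1.84). The authors' deposited values, which are linear, gave 161.4, 237.3 and 124.4 for CKO D, E and F, and 136.5, 88.3 and 38 for Control A, B and C. The order of arrays was the same as in the normalised log2 signals. The difference was positive under all 17 alternatives of processing, from 0.55 to 1.30, and was called under none (limma, adjusted p from 0.458 to 0.9997). Some of these could not move it from 0.96, since Chrd has 1 probe: the changes of filter, of probe averaging and of trend and robust fitting.

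**Figure D3:**
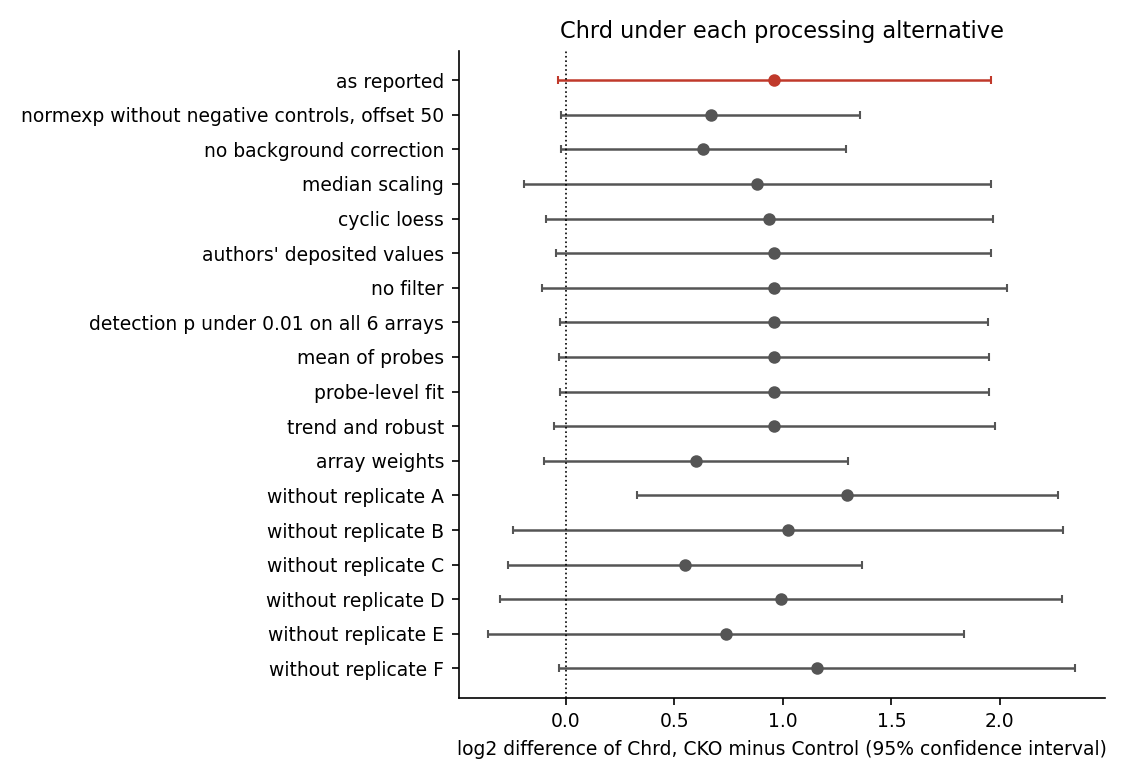
Log2 difference of Chrd, CKO minus Control, as reported (red) and under 17 alternatives (grey), with 95% confidence intervals. All points lie above 0, and the interval leaves 0 out only without replicate A (0.33 to 2.27).

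The 3 tested genes whose log2 signals followed that of Chrd most closely over the 6 arrays were Eif2b3, a subunit of a translation initiation factor complex (r = 0.997), Nr1d1, a nuclear receptor of the circadian clock (r = 0.996), and Pcdh1, a protocadherin (r = 0.991). Nr1d1 had 7.06, 7.80 and 6.72 on CKO D, E and F, and 7.03, 6.13 and 4.80 on Control A, B and C. With 6 arrays such values are easily reached: 298 of the tested genes had r over 0.9 with Chrd. They are a description of these arrays.

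Chrdl1 encodes chordin-like 1, a secreted relative of chordin that binds BMPs. The probes gave raw signals of 64.0 to 77.2 on CKO arrays and 64.8 to 82.7 on Control arrays, with detection p-values from 0.301 to 0.959. The probes lay on the same side of background on every array. Neither gave a value that could be told from background in either group.

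Nog encodes noggin, which binds BMPs and covers their receptor-binding surfaces. Raw signals were 70.4, 68.7 and 58.4 on CKO D, E and F, and 75.1, 77.4 and 77.5 on Control A, B and C. On the normalised scale the CKO arrays also lay below the Control arrays, at 4.44, 4.40 and 4.29 against 4.46, 4.46 and 4.56. All of these were below background, with detection p-values from 0.370 to 0.997, so values in this range have no order and no fold is given. Groups that did not overlap were found for 10.6% of tested genes.

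Grem1 encodes gremlin, a BMP antagonist of the DAN family. Raw signals were 68.4, 82.4 and 70.4 on CKO D, E and F, and 70.5, 76.4 and 69.4 on Control A, B and C. The lowest detection p-value was 0.161, on CKO E, so no array was above background.

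Fst encodes follistatin, a secreted binding protein for activins. Its raw signal was 73.6 on CKO D, 155.2 on CKO E and 72.9 on CKO F, against 96.3 on Control A, 84.3 on Control B and 79.8 on Control C. CKO E alone was above background, with a bead standard error of 5.96 from 39 beads. The other 5 arrays were not, and their values have no order. Control A came closest, just under the lowest signal above background on that array, 99.4. Being above background on CKO E alone was found for 1.2% of all probes.

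For Fst the mean log2 signal was 5.17 ± 1.14 in CKO and 4.76 ± 0.24 in Control (SD, n = 3 each). The difference of 0.41 turned to -0.24 when CKO E was left out, which leaves only arrays below background, so no fold is given. The exact two-sided permutation test gave p = 1. That permutation test was run because CKO E was above background, and it averages values below background, so its p-value is a description only. Without the filter on dim probes the fit gave an interval of -1.01 to 1.83 (limma, adjusted p = 0.977 over 28878 genes).

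Fstl1 encodes follistatin-like 1, a secreted glycoprotein made by mesenchymal cells that shares a follistatin domain and can bind BMPs. Its raw signal was 94.5 on CKO D, 184.5 on CKO E and 81.5 on CKO F, against 82.7 on Control A, 83.1 on Control B and 91.9 on Control C. CKO E was above background with a detection p-value of 0, and CKO D with 0.0214. CKO F and the 3 Control arrays were below background, so their values have no order, and CKO arrays lay on both sides of background. Being above background on CKO D and CKO E alone was found for 0.258% of all probes.

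The mean log2 signal of Fstl1 was 5.64 ± 1.11 in CKO and 4.75 ± 0.26 in Control (SD, n = 3 each), a difference of 0.89 that was 0.26 without CKO E. The exact two-sided permutation test gave p = 0.2. It was run because of CKO arrays alone and averages values below background, so this p-value is a description only. Since 1 CKO array of 3 and all Control arrays were below background, no fold is given. Without the filter, the interval was -0.50 to 2.29 (limma, adjusted p = 0.977). Another probe, listed under Fstl, an older name of Fstl1, is outside the 9 because of its symbol. It was above background on 3 CKO arrays and 0 Control arrays, a pattern whose share of all probes was not computed. Its raw signals overlapped, at 89.7, 98.5 and 89 on CKO D, E and F, and 90.8, 93 and 89.2 on Control A, B and C. The lowest raw signal above background was 88.4 to 93.9 on CKO arrays and 93.8 to 99.4 on Control arrays. Detection p-values were 0.0278 to 0.0492 in CKO and 0.0919 to 0.111 in Control. The log2 difference of this probe was 0.23 (SE 0.15; limma, adjusted p = 0.976). At least 1.02-fold is the bound for that probe, and at a detection p-value under 0.01 it was above background on 0 arrays. The probe passed the filter only through its CKO arrays, so its difference, p-value and bound are a description only.

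Marker lists of other cell types also differed between arrays, and several were high on CKO E, where Chrd, Fstl1 and Fst had their highest signals. Of the lists below, those of endothelium and glandular epithelium were highest on CKO E, and the others were highest on other arrays. The glandular and erythroid lists were lowest on Control C, where Chrd was lowest too. Mean deviations of 10 tested stroma markers of 16 listed were 1.05 on CKO D, 0.68 on CKO E and -0.94 on CKO F, against -0.40, -0.37 and -0.023 on Control A, B and C. For 8 endothelium markers of 10 listed they were 0.21, 0.97 and -0.73 on CKO D, E and F, and -0.12, -0.29 and -0.050 on Control A, B and C. For 6 glandular epithelium markers of 9 listed they were -0.58, 1.56 and -0.44 on CKO D, E and F, and 0.25, 0.086 and -0.88 on Control A, B and C. Of the 6 glandular genes 4 were highest on CKO E, among them Wnt7b (11.4), while Cxcl15 was highest on Control B (9.15) and Lif on CKO F (5.59). Sox9 was higher on every CKO array, at 10.4, 10.8 and 10.2 on CKO D, E and F, and 9.49, 9.71 and 7.47 on Control A, B and C (limma, adjusted p = 0.976). The groups of Lif did not overlap either, but it passed the filter only through its 3 CKO arrays. Groups that did not overlap were thus found for 2 of the 6, against 10.6% of all genes tested. Stroma markers were highest on CKO D, where Fst was below background and Fstl1 above it. They were next highest on CKO E, where Fst and Fstl1 were both above background.

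Summed normalised signals of the stroma list ran from 1184 to 7190 in CKO and from 2355 to 3221 in Control. Those of the endothelium list ran from 347 to 1301 in CKO and from 487 to 518 in Control, and those of the glandular list from 1578 to 6256 in CKO and from 597 to 2127 in Control. The stroma genes Hand2, Hoxa10, Hoxa11 and Postn and the endothelial gene Tie1 were above background on 0 arrays, and the glandular gene Foxa2 on 2. Dcn, a stroma gene, was bright on every array, at 12.4, 10.7 and 9.50 on CKO D, E and F, and 11.1, 10.7 and 11.2 on Control A, B and C. For 9 smooth muscle, 14 immune, 4 erythroid and 5 mesothelium markers, the numbers tested were 5, 4, 3 and 3. Of the smooth muscle list 3 genes were above background on 0 arrays, Myh11 and Cnn1 among them, and of the immune list 7, with Ptprc. The smooth muscle genes Acta2, Des and Smtn and the immune genes Cd68, Lyz2 and Cd14 were above background on 6 arrays. Mean deviations of smooth muscle markers were 0.37, 0.45 and -0.83 on CKO D, E and F, and 0.46, -0.14 and -0.30 on Control A, B and C. For immune markers they were -0.40, 0.28 and 0.35 on CKO D, E and F, and -0.34, -0.10 and 0.22 on Control A, B and C. Erythroid markers had -0.54, -0.34 and 1.02 on CKO D, E and F, and 0.47, 0.14 and -0.75 on Control A, B and C. Mesothelium markers had 1.61, -0.86 and -0.96 on CKO D, E and F, and 0.027, -0.33 and 0.51 on Control A, B and C. These last 2 lists were thus below their mean on CKO E. The part of these cell types in the values of Fstl1, Fst and Chrd was not tested.

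**Figure D4:**
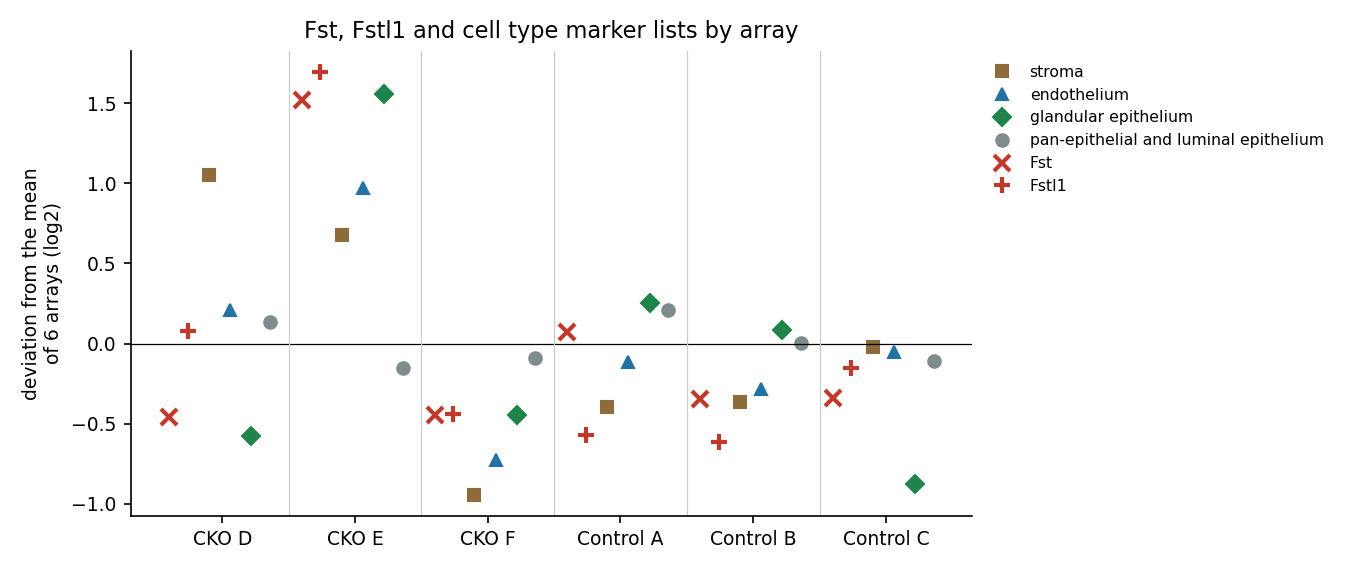
Deviation of Fst, Fstl1 and the means of 4 cell type marker lists from their mean over 6 arrays (log2), for 3 CKO arrays and 3 Control arrays. Fst, Fstl1, endothelium and glandular markers are highest on CKO E, stroma markers on CKO D (1.05), and epithelial markers stay between -0.15 and 0.21.

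Fstl3 encodes a follistatin relative that binds activins and myostatin. The raw signals were 73.2, 76.7 and 70.1 on CKO D, E and F, and 75.8, 94.2 and 76.6 on Control A, B and C. Control B was the highest and came closest to background of the 5 undetected genes, with a detection p-value of 0.0855 and a bead standard error of 6.10. Its lowest signal above background was 97.9.

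Bambi encodes the membrane pseudoreceptor, and in other tissues is known as a gene that BMP signalling itself induces. Raw signals of 75.8, 75.5 and 80.8 were read on CKO D, E and F, and 84.4, 79.7 and 87.8 on Control A, B and C. No array reached background, and the lowest detection p-value was 0.105, on Control C. The values of the groups overlapped.

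Other extracellular modulators of the pathway were taken from a list of 29 genes. Of these, 10 could be tested and 12 were above background on 0 arrays by any probe. Higher in CKO by value were 6 and lower 4, with 0 called in either direction and 1 with an unadjusted p-value under 0.05 (limma). Their median log2 difference was 0.063, beside -0.011 for all genes tested. Of the 10, 2 had groups that did not overlap, against the 10.6% of all genes tested. For an unadjusted limma p-value under 0.05 the share of all genes tested was 4.72%.

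The 1 with a small unadjusted p-value was Lefty1, an inhibitor of nodal signalling. It had 6.33, 6.26 and 5.83 on CKO D, E and F, and 5.72, 5.63 and 4.98 on Control A, B and C. All CKO arrays were higher, by 0.69 on average (SE 0.26; limma, adjusted p = 0.976, unadjusted p = 0.034). Wfikkn1, a protease-inhibitor-like protein that binds myostatin, also had groups that did not overlap, with a difference of 0.29 (SE 0.17). The gap was narrow, with 5.24 on CKO E against 5.22 on Control C, near background. Lefty1 and Wfikkn1 were each above background on 3 CKO arrays and 2 Control arrays. Wfikkn2, its relative, had 5.40, 8.09 and 5.22 on CKO D, E and F, and 6.18, 4.52 and 4.37 on Control A, B and C, so that CKO E was again the highest. Its log2 difference was 1.21 (SE 0.86), and 0.28 without CKO E. Wfikkn2 was above background on 3 CKO arrays and 1 Control array, so its difference rests in part on values below background.

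Twsg1, a chordin-binding protein, was measured on all 6 arrays at 10.6 ± 0.29 in CKO and 10.7 ± 0.26 in Control (SD, n = 3 each), a difference of -0.15 (SE 0.23). Bmp1, the protease that cuts chordin, averaged 8.91 ± 1.44 in CKO and 8.93 ± 0.16 in Control, with 10.5 on CKO E, and its difference of -0.018 was -0.83 without that array. Nbl1, a DAN family antagonist, averaged 7.85 ± 1.38 in CKO and 7.77 ± 0.18 in Control. These pairs differed by less than the spread between CKO arrays. Smoc1 differed by 0.51 (SE 0.78), Tgfbr3, a co-receptor, by 0.045 (SE 0.49), Htra1 by -0.11 (SE 0.33) and Fstl4 by -0.52 (SE 0.33).

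**Figure D5:**
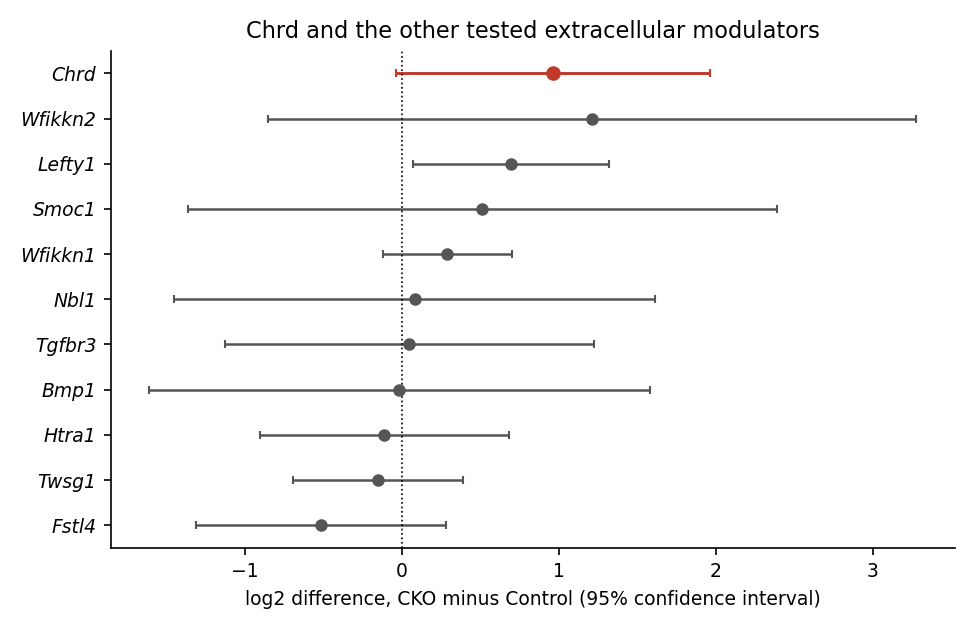
Log2 difference, CKO minus Control, of Chrd (red) and of the 10 other tested extracellular modulators (grey), with 95% confidence intervals from limma. Every interval except that of Lefty1 holds 0, and none of the 11 genes was called.

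The ligands that these proteins bind were mostly near background as well. Of 29 listed BMP, activin and TGF-beta ligands, 27 had a probe, 5 could be tested and 18 were above background on 0 arrays, Bmp2 and Inhba among them. Bmp4 averaged 5.62 ± 1.08 in CKO and 5.45 ± 0.46 in Control (SD, n = 3 each). Of 14 receptors and co-receptors 12 could be tested, with 3 higher and 9 lower in CKO by value and 0 called (limma; 1, Bmpr1a, had an unadjusted p-value under 0.05). Of 8 SMADs 5 could be tested, with 2 higher and 3 lower by value and 0 called (limma; 0 with an unadjusted p-value under 0.05). The median log2 difference was 0.0060 for ligands, -0.12 for receptors and -0.0046 for SMADs, beside -0.96 for the BMP-induced targets that follow.

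The list of BMP-induced targets held 10 genes, of which 7 could be tested, with 1 higher and 6 lower in CKO by value and 0 called (limma). Id2 and Id4 had an unadjusted limma p-value under 0.05, a level that 4.72% of all genes tested were under. Their groups did not overlap, which held for 10.6% of genes tested. Id4 passed the filter only through its Control arrays, and its CKO values, below background, have no order. Its p-value and lack of overlap are therefore a description only, and the list median of -0.96 counts it. Of the tested targets other than Id genes, Smad6 differed by -0.42 (SE 0.27), Msx1 by -0.34 (SE 0.34) and Hey1 by 0.44 (SE 0.33). Smad6 is also counted among the SMADs. The Id genes encode inhibitors of helix-loop-helix transcription factors. Id2 had 8.86, 8.65 and 9.51 on CKO D, E and F, and 9.85, 9.85 and 10.2 on Control A, B and C, a difference of -0.96 (SE 0.27; limma, adjusted p = 0.976). Id4 was above background on 0 CKO arrays and 3 Control arrays, with 4.83, 4.52 and 4.57 on CKO D, E and F, and 5.39, 6.21 and 7.18 on Control A, B and C (limma, adjusted p = 0.976). Both were lower on every CKO array without being called, while the groups of Id1 and Id3 overlapped. Id1 had 7.70, 7.47 and 8.68 on CKO D, E and F, and 6.95, 9.79 and 11.2 on Control A, B and C. Id3 had 5.79, 5.51 and 5.38 on CKO D, E and F, and 5.49, 6.86 and 8.53 on Control A, B and C. Among Control arrays, Chrd was thus highest on A and lowest on C, while Id1, Id3 and Id4 were lowest on A and highest on C. Id2 was also highest on C, with A and B nearly equal. Among CKO arrays, Chrd was highest on E and lowest on F, while Id1 and Id2 were lowest on E and highest on F. Id3 was lowest on F, as Chrd was, and Id4 was below background. These orders were noticed after the values were seen, and with 3 arrays a group they were not tested.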

How the data were processed

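Per the file headers, the authors deposited for each array a bead-averaged intensity per probe on a linear scale, its bead standard error, the number of beads and a detection p-value. The scanning software was not given in the sources used. The authors also deposited processed intensity values, which keep the order of the raw values within each array, reach below 0 and are linear, and each array has the median 6.4. The steps of neqc (limma 3.58.1, R 4.3.3) were applied to raw intensities: normexp background correction, with negative controls taken from the detection p-values, addition of 16, quantile normalisation and log2. Adding 16 shrinks the fold changes of dim probes.

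Probes above background (detection p-value under 0.05) on at least 3 arrays were kept, 17291 in all. Probes were named by RefSeq accession (29370), by symbol or synonym in a RefSeq table of GRCm38.p6 (6952), or kept the name in the file (8941). The 18 others were left out, and a member's probes were taken by symbol alone. The brightest probe stood for its gene, giving 11940 genes. The comparison used lmFit and eBayes of limma (two-sided), and p-values were adjusted by Benjamini-Hochberg across these genes, with a call under 0.05. Members with an array above background also had an exact permutation test.

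A bound ("at least") sets the mean of CKO against, per Control array, the probe's own log2 signal or the lowest one above background, whichever is higher. Levels of different probes were not compared. The fit was tested on simulated data. Named were all members, every tested gene of the modulator list, up to 3 genes of each other list with Bmpr1a and Id1 to Id4, and the 3 genes most correlated with a tested member. One gene was left out of the modulator list and is not reported here. Other genes named were chosen after their values were seen. The members and lists were chosen with earlier results of these data known. All arrays shared 1 chip, with CKO on positions D to F and Control on positions A to C. Position and group therefore cannot be told apart. The number of arrays limits the precision.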

Additional observations from a re-analysis of the deposited data

How the results depend on the processing

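All alternatives were planned. Members called higher and members called lower in CKO stayed at 0 under all 17, and genes called lower at 0. Genes called higher, 2 as reported, were 1 with normexp without negative controls, 1 with the deposited values (set to at least 0, plus 16, then log2), 1 with cyclic loess, 1 with median scaling and 1 with no background correction. They were 0 with no filter, which adjusts over 28878 genes, and 0 with detection under 0.01 on all arrays. The probe-level fit, which adjusts over 17291 probes, called 3 probes higher, so a gene can count there more than once. The number of genes called higher was 5 with array weights, 3 with trend and robust fitting and 2 with the mean of probes. Leaving out single arrays gave 0 to 1. The cause was not tested. Chrd kept its sign and stayed uncalled under all 17, from 0.55 to 1.30. Its difference could not move with no filter, the stricter filter, the mean of probes, the probe-level fit or trend and robust fitting. Its smallest differences were without Control C (0.55), with array weights (0.60) and with no background correction (0.63). Pairs of member probe and array above background were 9 of 54 at a detection p-value under 0.05 and 8 at 0.01, where CKO D no longer counted for Fstl1. Under 12 alternatives each, Fstl1 stayed positive (0.26 to 1.34), Grem1 positive, and Nog and Fstl3 negative. Fst ran from -0.24 without CKO E to 0.75 without CKO D, and Chrdl1 and Bambi changed sign close to 0. Apart from Chrd, these are values below background on most or all arrays, so signal over background limits them. No paired analysis was possible because the groups share no replicate label.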
